A study of Mus musculus with 6 samples.

Results

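The genes described here are Spi1, which encodes the ETS transcription factor PU.1, and 9 genes for its relatives, partners and antagonists in blood cell fate, namely Spib, Spic, Irf4, Irf8, Cebpa, Cebpb, Cebpe, Gata2 and Runx1. They were chosen by name, and a gene's brightest array row with that single symbol was used. All 10 were found among the 22180 genes measured. The study used 1 cell line of mouse acute myeloid leukaemia, called PU.1low URE-/-, which came from a mouse that had reached the leukaemic stage and lacked the URE, the upstream regulatory element that acts as an enhancer of Spi1. One group received DB2313 at 330 nM for 24 h, a small molecule that the labels call a PU.1 inhibitor, and the other received the same volume of water as vehicle for 24 h. Both groups carry the URE deletion, so no array shows the level of Spi1 in cells with an intact enhancer. Each group had 3 arrays, labelled as biological replicates. No label says that they came from separate cultures, and if they did not, the p-values reflect technical spread alone.

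PU.1 binds DNA through its ETS domain and drives the monocyte, granulocyte and B cell programmes. SPI-B and SPI-C, its closest relatives, bind similar sites. IRF4 and IRF8 bind next to PU.1 on composite sites, and the C/EBP factors and RUNX1 share many myeloid enhancers with it, while RUNX1 also acts on the URE of Spi1. GATA2, a factor of stem, mast and early progenitor cells, and PU.1 are known to oppose each other. PU.1 is known to bind its own gene, and partial loss of PU.1 through deletion of the URE gives myeloid leukaemia in mice.

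The arrays had nearly equal distributions, with medians over all rows between 4.77 and 4.82 on the log2 scale, and Pearson's r across genes was at least 0.994 for every pair of arrays. Among 13 marker genes of the labelled myeloid leukaemia, those of primary granules were near the top of the scale, with vehicle means of 13.05 for Elane, 12.46 for Prtn3 and 9.90 for Mpo, and Kit, the stem cell factor receptor, had 8.84. Ptprc, which encodes the common leukocyte antigen, had a vehicle mean of 3.32, in the lowest part of the scale, and Cd34, a progenitor surface marker, had 4.59. All but Mpo were named here as defining markers whatever their values. None of the 13 passed the test between the groups, and Fcgr3, an Fc receptor, and Mpo had the smallest p, with differences of -0.29 and 0.29 on the log2 scale (limma adjusted p = 0.168 and 0.281).

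Of the 10 factor genes, Spi1 was the only one that passed the test, and it fell with DB2313. In this comparison 1.81% of all genes passed a limma adjusted p of 0.05, with 0.789% lower and 1.02% higher, so a count of 1 in 10 is a single gene and says nothing of the set. The differences of the 10 genes lay between -0.37 and 0.13 on the log2 scale, 8 of them below 0, as were 50.9% of all genes. Their median was -0.06, against -0.0024 over all genes, and their median absolute difference was 0.10, against 0.08 over all genes. The groups did not overlap for 2 of the 10, Spi1 and Cebpb, and both were lower with DB2313. Over all genes 19.3% had groups that did not overlap, and for 9.55% the DB2313 arrays lay below.

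**Figure D1:**
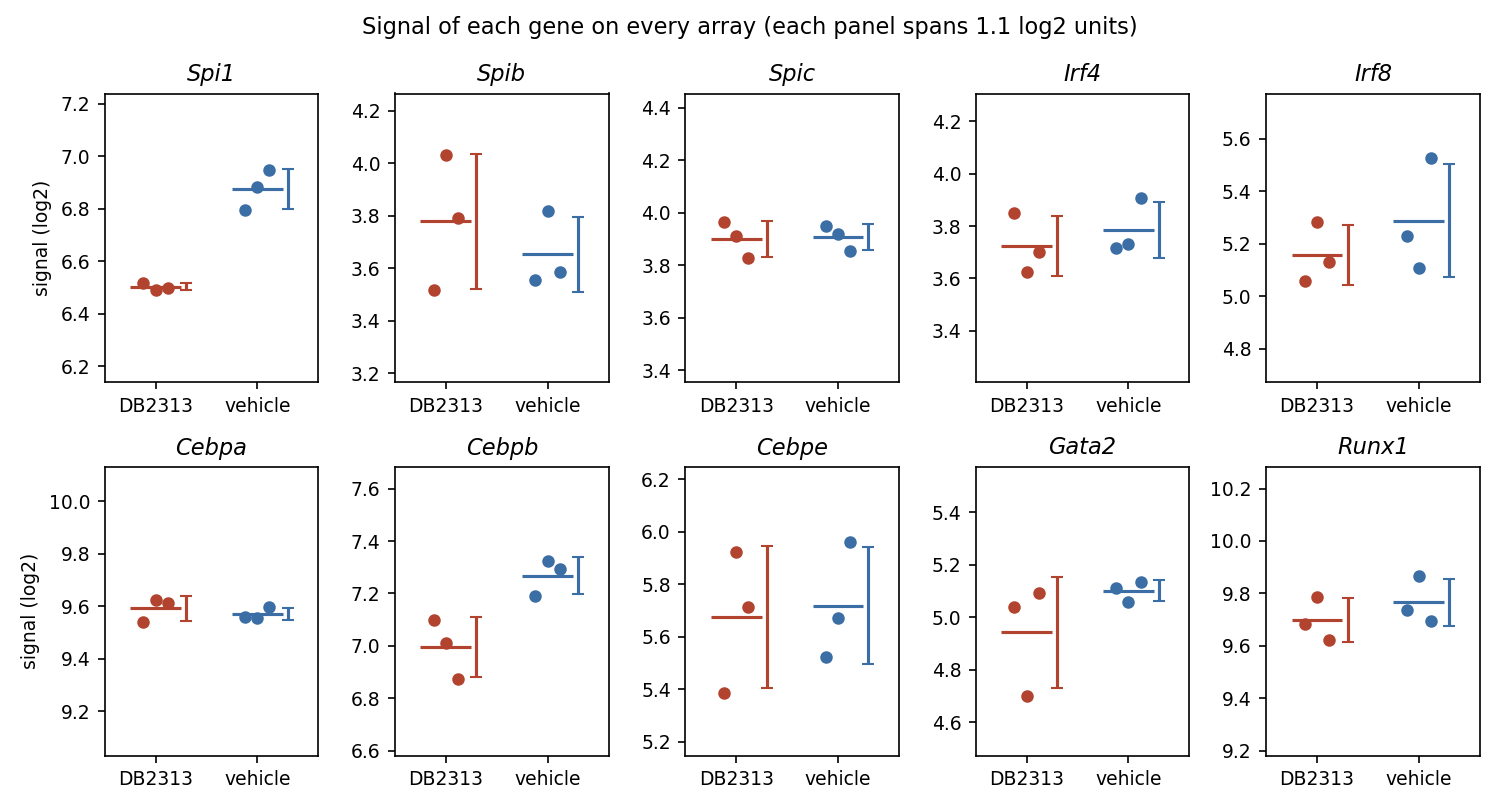
Log2 signal of the 10 factor genes on each array, with DB2313 (red) left of vehicle (blue). Points are arrays, horizontal lines are group means, the bars beside them show 1 SD (n = 3), and the panels have different origins but the same height. The DB2313 points of Spi1 and Cebpb lie below all vehicle points, and the points of the other 8 genes overlap.

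Spi1 had signals of 6.52, 6.49 and 6.50 on the DB2313 arrays, against 6.79, 6.88 and 6.95 on the vehicle arrays (log2). All DB2313 arrays lay below all vehicle arrays, with a gap of 0.28 between the nearest values of the groups. The mean was 6.50 ± 0.01 with DB2313 and 6.87 ± 0.08 with vehicle (SD, n = 3 each), a difference of -0.37 on the log2 scale or 1.29-fold lower. The 95% confidence interval of the difference was -0.52 to -0.22, and the limma adjusted p was 0.0342. The interval spans falls of up to 1.43-fold. By p, Spi1 ranked 304 of 22180 genes. The adjusted p lay between 0.0648 and 0.134 on omitting any single array of the 6, so the call was lost in each of these settings, while the difference stayed between -0.41 and -0.34. The median difference of all genes was -0.0024, and with array medians made equal Spi1 had -0.37 (adjusted p = 0.0294). In bulk RNA, less transcript per cell and fewer cells with the transcript cannot be told apart.

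**Figure D2:**
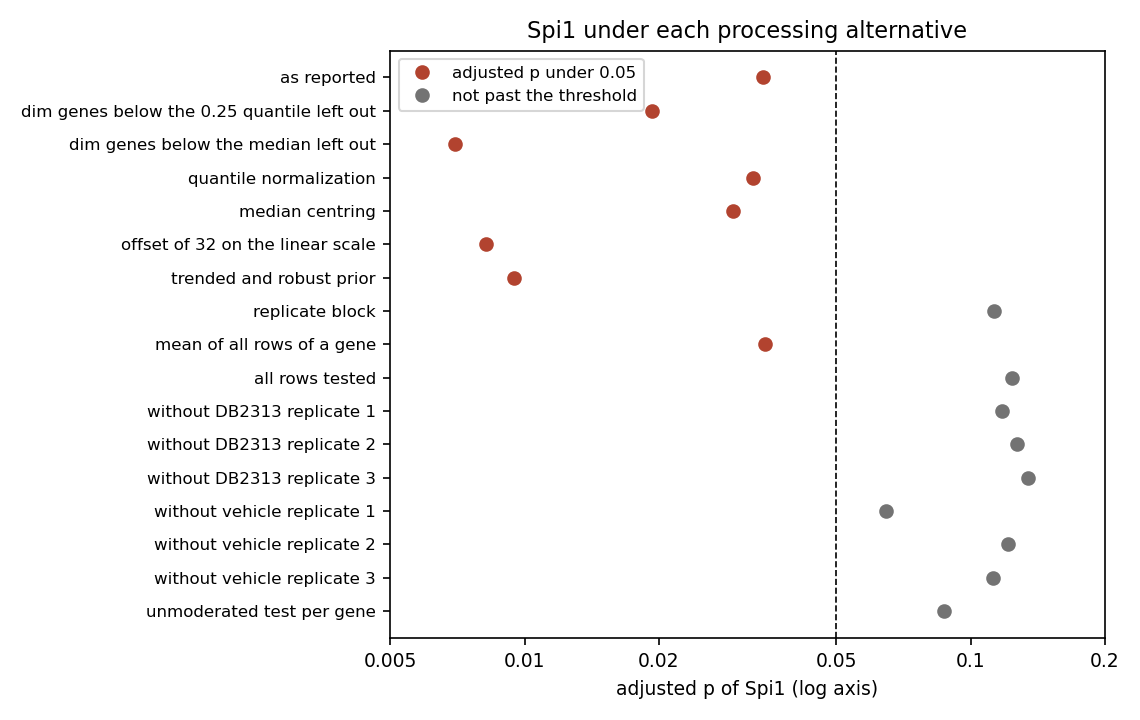
Limma adjusted p of Spi1 (log axis) under the reported setting and 16 alternatives, 1 per line, with the dashed line at 0.05. Spi1 passed in 7 of the 16 alternatives (red) and in no setting with an array left out, where the lowest value was 0.0648.

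Spib, which encodes the relative of PU.1 used mainly by B cells and plasmacytoid dendritic cells, had signals of 3.52, 4.03 and 3.79 with DB2313, against 3.55, 3.82 and 3.59 with vehicle. The groups overlapped, and the difference was 0.13 (95% confidence interval -0.19 to 0.44, limma adjusted p = 0.773). It was 0.00061 without DB2313 replicate 2 and 0.26 without DB2313 replicate 1. Spic, whose product is needed for iron-recycling macrophages of the spleen, had 3.96, 3.91 and 3.83 with DB2313, against 3.95, 3.92 and 3.85 with vehicle. The groups overlapped almost fully, with a difference of -0.0061 (interval -0.16 to 0.15, adjusted p = 0.981). The signals of both genes were in the lowest part of the scale, with 21.7% and 25.3% of all genes at or below the mean of Spib and of Spic over the 6 arrays. Signals so low can hide a difference, because background was not measured in the values used here. The RefSeq promoter of Spib (GRCm38.p6, gene on the minus strand) holds 1 match to the loose C/EBP motif TTGCNNAA, where N is any base. The match lies at chr7:44532185-44532192. It is shown here because Spib is the only one of the 8 genes searched with that motif in the 250 bases before its start. Capitals mark the match, on the strand opposite to the gene.
Spib: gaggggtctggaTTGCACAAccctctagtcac

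Irf4 and Irf8 encode the interferon regulatory factors that PU.1 recruits to composite sites, IRF8 being required for monocyte and dendritic cell fate and IRF4 for plasma cells and some dendritic cells. Irf8 had signals of 5.06, 5.28 and 5.13 with DB2313, against 5.23, 5.11 and 5.53 with vehicle. The groups overlapped, with vehicle replicate 3 the highest array. The difference was -0.13 (interval -0.40 to 0.14, limma adjusted p = 0.719), and it was -0.01 without vehicle replicate 3 and -0.22 without vehicle replicate 2. Irf8 was the only one of the 10 genes with another row on the array, and that dimmer row had means of 4.35 ± 0.10 with DB2313 and 4.28 ± 0.10 with vehicle (SD, n = 3 each). Its difference, 0.07, had the opposite sign, and its interval of -0.14 to 0.27 also included 0, so the rows gave no common direction for Irf8.

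Irf4 had signals of 3.85, 3.62 and 3.70 with DB2313, against 3.72, 3.73 and 3.91 with vehicle. These signals were again low and overlapped, with a difference of -0.06 (interval -0.26 to 0.14, limma adjusted p = 0.838), and 0.00065 without vehicle replicate 3. The promoter of Irf4 is 1 of 2 among the 11 RefSeq promoters of these genes with the PU.1 core motif GAGGAA, and the other is that of Runx1, which is why both sites are shown. The Irf4 site begins 19 bases before the start of the gene at chr13:30749214-30749219 (GRCm38.p6, gene on the plus strand), and the Runx1 site 46 bases before a start of that gene at chr16:92697370-92697375 (gene on the minus strand). Both lie on the strand opposite to the gene, and capitals mark the motif.
Irf4: tgaggtgagaaaGAGGAActttatagagcc
Runx1: taagcccgacccGAGGAAttccattccctc
Neither gene passed the test, and 23.3% of all 32851 promoters in the table hold that motif in the same window. The table had promoters for 8 of the 10 genes, 3 of them with 2 promoters each, and Spi1 and Cebpe were the other two. On both strands, 0 of the 11 promoters held GAGGAAGT (2.44% of all promoters), AGATAA for GATA factors (9.99%) or TGTGGT for RUNX factors (14%). Nor did any hold the paired IRF motif (2.98%) or the composite motif with its ETS site before its IRF site (2.3%). The composite motif with the IRF site first was not searched. The Irf4 stretch shown above holds that order, in a match that includes the capitals. How many of all promoters hold that order was not counted, so its presence there cannot be weighed. TTGCNNAA was held by 1 of the 11 and by 9.56% of all promoters. GAGGAA overlaps GAGGAAGT, which contains it.

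The C/EBP genes encode factors that act in order along granulocyte differentiation, with C/EBP alpha in progenitors, C/EBP epsilon in maturing cells with secondary granules, and C/EBP beta in monocytes and emergency granulopoiesis. Cebpb had signals of 7.10, 7.01 and 6.87 with DB2313, against 7.19, 7.32 and 7.29 with vehicle. All DB2313 arrays lay below all vehicle arrays, but the gap between the nearest values was only 0.09. The mean was 7.00 ± 0.11 with DB2313 and 7.27 ± 0.07 with vehicle (SD, n = 3 each), a difference of -0.27 (interval -0.45 to -0.09). The unadjusted p in limma was 0.00902 and the adjusted p of 0.186 did not pass. Cebpb and Spi1 were the 2 genes of the 10 with an unadjusted p under 0.05, as had 12.7% of all genes. Cebpb did not pass in any of the 16 alternatives, with adjusted p from 0.0621, when genes below the median signal were left out, to 0.403, without DB2313 replicate 3. It kept its sign in all 16.

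Cebpa had signals of 9.54, 9.62 and 9.61 with DB2313, against 9.56, 9.56 and 9.60 with vehicle. It had the narrowest interval of the 10 genes, and the groups overlapped, with a difference of 0.02 (interval -0.11 to 0.16, limma adjusted p = 0.923). In fold terms the interval runs from 1.08-fold lower to 1.12-fold higher. Cebpe had 5.39, 5.92 and 5.71 with DB2313, against 5.52, 5.67 and 5.96 with vehicle. Its arrays were the most spread of the 10 genes by pooled SD, and the difference of -0.04 had an interval of -0.41 to 0.32 (adjusted p = 0.944). The sign of Cebpe turned without DB2313 replicate 1 (0.10) or without vehicle replicate 3 (0.08).

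Gata2 had signals of 5.04, 4.70 and 5.09 with DB2313, against 5.11, 5.06 and 5.14 with vehicle. DB2313 replicate 2 was the low array, and the other 2 DB2313 arrays lay near the vehicle range. The difference was -0.16 (interval -0.40 to 0.09, limma adjusted p = 0.605), and it was -0.04 without DB2313 replicate 2. Runx1, which encodes the DNA-binding partner of CBF beta, had 9.68, 9.79 and 9.62 with DB2313, against 9.74, 9.86 and 9.70 with vehicle. The groups overlapped, with a difference of -0.07 (interval -0.24 to 0.11, adjusted p = 0.780). The intervals allow a fall of up to 1.32-fold for Gata2 and up to 1.18-fold for Runx1.

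**Figure D3:**
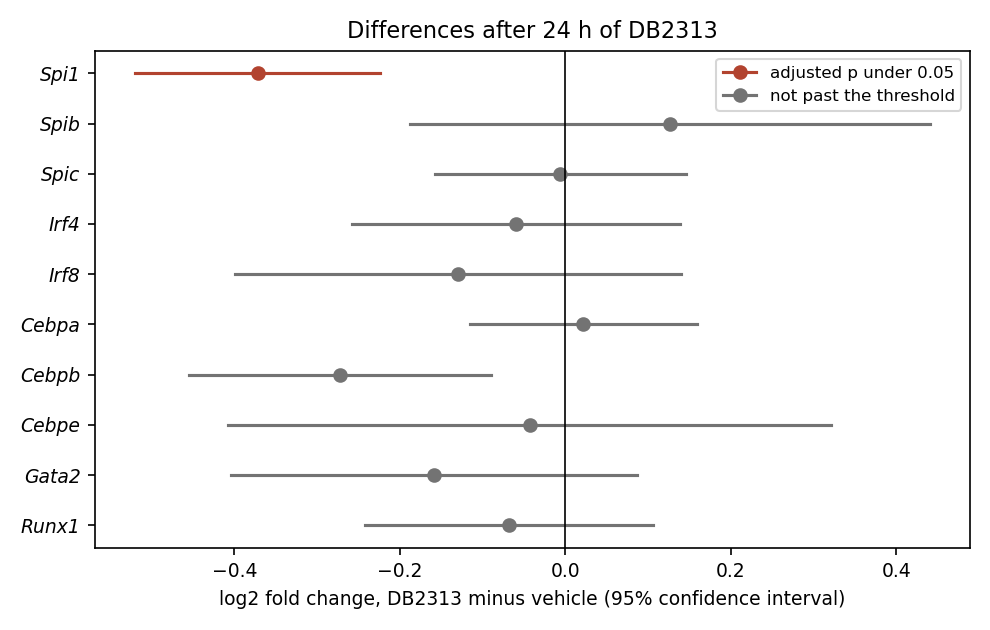
Log2 fold change, DB2313 minus vehicle, of the 10 factor genes (points) with 95% confidence intervals from limma (lines), 3 arrays per group. Spi1 (red) had an adjusted p under 0.05, the interval of Cebpb also lay below 0 without passing after adjustment, and the other 8 intervals include 0.

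Spi1 was also set against its partners within each array, as a difference of log2 signals counted from the vehicle mean of that difference. Spi1 minus Cebpa stood at -0.33, -0.44 and -0.42 on the DB2313 arrays, against -0.07, 0.02 and 0.05 on the vehicle arrays. The groups did not overlap, and almost all of the shift of -0.39 came from Spi1. Spi1 minus Gata2 stood at -0.29, 0.02 and -0.36 on the DB2313 arrays, against -0.09, 0.05 and 0.04 on the vehicle arrays. Here the groups overlapped through DB2313 replicate 2, the array with the low Gata2 signal. Spi1 minus Cebpb shifted by -0.10, with overlapping groups. Against Spib, Spic, Irf4 and Runx1 the DB2313 arrays also lay below the vehicle arrays, and against Irf8 and Cebpe the groups overlapped. Spi1 is part of every difference, so its own fall enters each by construction. These values are descriptions, without a test.

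Among genes at or above the median signal, the 5 with profiles nearest to Spi1 over the 6 arrays were Fhl3, Rrp1b, Il6ra, Cyp39a1 and Il1rn. Nearness was the Euclidean distance between log2 values centred on each gene's mean, and it ran from 0.08 for Fhl3 to 0.12 for Il1rn. They were chosen for this likeness on the same arrays, so their differences are descriptions and no test is given for them. The nearest gene, Fhl3, had 7.87, 7.86 and 7.94 with DB2313, against 8.20, 8.22 and 8.31 with vehicle. Its difference was -0.35. Il6ra, the interleukin 6 receptor, had -0.41, Rrp1b, a ribosomal RNA processing factor, -0.37, Il1rn, the interleukin 1 receptor antagonist, -0.41, and Cyp39a1, an oxysterol hydroxylase, -0.29. With 32 added to the linear signal, which damps dim genes, Il1rn had -0.22.

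Of 48 measured genes taken as direct PU.1 targets in blood cells, 6 fell with DB2313, 1 rose and 41 did not pass. Over all genes 0.789% fell and 1.02% rose at the same threshold. Of the 48, 15 were below the median signal of all genes, and low signals can hide a difference. The median difference of the 48 was -0.08, against -0.0024 over all genes, with 33 of 48 below 0, against 50.9% of all genes. Ly96, the co-receptor of lipopolysaccharide, Cd33, a sialic acid-binding receptor, Clec5a, a C-type lectin receptor, and Itgb2, the common leukocyte integrin chain, had the largest falls, with -2.20, -1.85, -1.62 and -0.70 on the log2 scale. Named after their values were seen, the tetraspanin Cd53 (-0.49) and Ncf1, a cytosolic oxidase subunit (-0.68), complete those that fell, and Cybb, the membrane subunit of that oxidase, rose by 0.65. Ncf1 did not pass in any setting with an array omitted (adjusted p up to 0.157), Cybb passed only without DB2313 replicate 2 among these, and Cd53 only without DB2313 replicate 3 or vehicle replicate 3. Each of the 4 largest falls was larger than that of Spi1 itself, as a comparison of fitted values without a test. The 4 were picked for their size, so this order follows largely from the choice and says nothing of the list. The list was drawn up when Ly96 and Cd33 were known to fall. Without them 4 of 46 fell, 1 rose and the median was -0.07. Other earlier results of these data were also known then, so the shorter list is not independent of the data. The mean signal of the 48 genes lay between 7.09 and 7.12 on the DB2313 arrays, against 7.29 and 7.31 on the vehicle arrays, and without Ly96 and Cd33 between 7.15 and 7.17 on the DB2313 arrays, against 7.27 and 7.29 on the vehicle arrays. Many of these genes are also markers of monocytes and macrophages, and the mean signal of 15 macrophage and dendritic cell markers lay between 4.96 and 5.04 with DB2313, against 5.08 and 5.10 with vehicle. None of those 15 passed, and 10 had a difference below 0. Cd68, a lysosomal protein of macrophages, had the smallest p, with 6.99 ± 0.13 with DB2313 and 7.46 ± 0.12 with vehicle (SD, n = 3 each), a difference of -0.47 (adjusted p = 0.0554), and Itgax, an integrin chain of dendritic cells, had -0.25 (adjusted p = 0.288). The DB2313 arrays lay below the vehicle arrays for both. Adgre1 and Csf1r, named as defining macrophage markers whatever their values, had vehicle signals of 3.37 and 5.02 and differences of -0.09 and -0.05. Cd68, Itgax, Flt3, Mrc1, Adgre1 and Csf1r are also on the PU.1 target list, so the list means are not independent. Of the 15, 10 were below the median signal of all genes. The mean of 9 megakaryocyte markers also lay lower with DB2313, between 4.65 and 4.75, against 4.78 and 4.87 with vehicle. That of 5 erythroid markers was also lower on all DB2313 arrays. For B cell markers and for T and NK cell markers the groups overlapped. The part of macrophages and dendritic cells in the result was not tested. The number of PU.1 target genes that fell was 3 without DB2313 replicate 1, DB2313 replicate 2 or vehicle replicate 2, 3 with all rows tested, 1 in the unmoderated test and 10 with 32 added to the linear signal. The call of Itgb2 was lost in all settings with an array left out except without vehicle replicate 1 (adjusted p up to 0.0966).

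**Figure D4:**
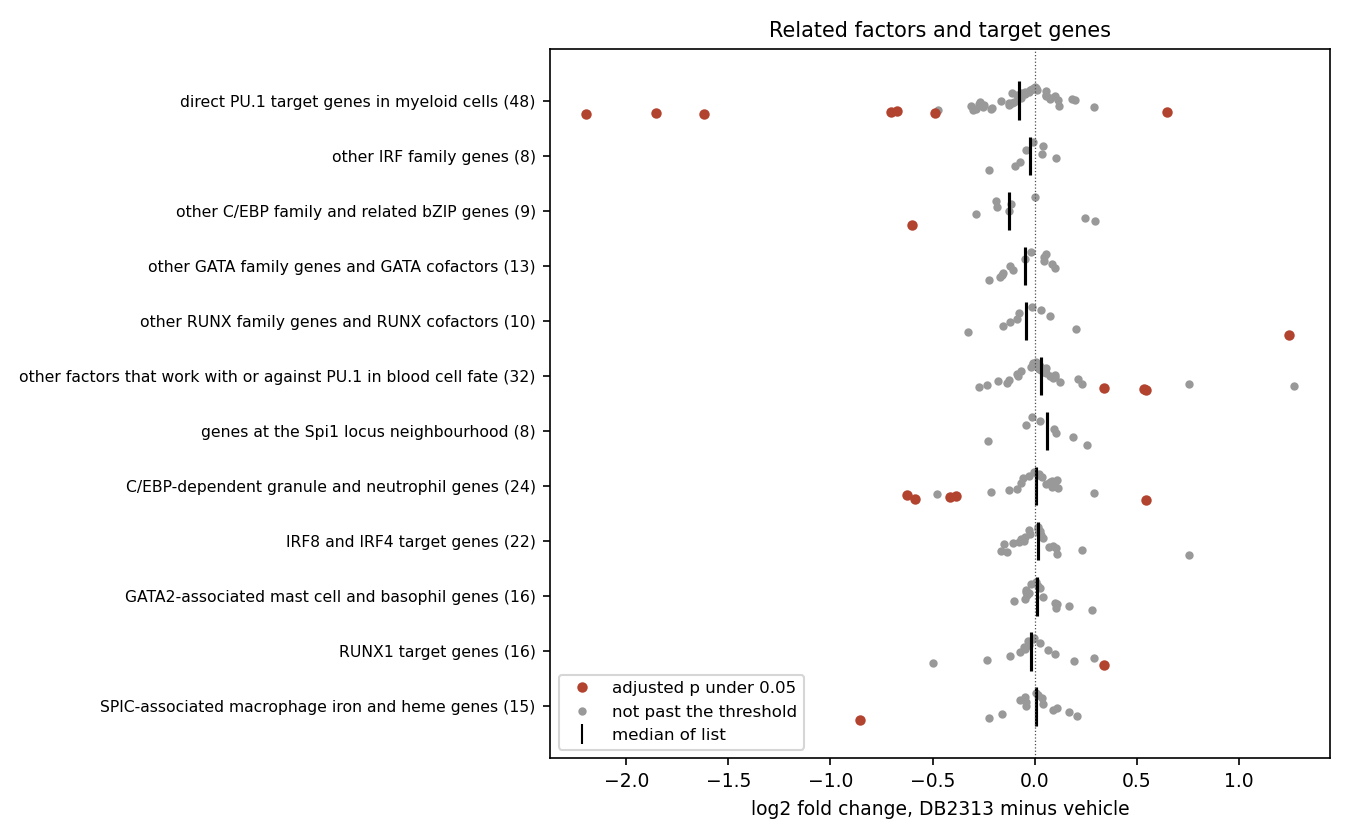
Log2 fold change, DB2313 minus vehicle, of each measured gene in 12 lists of related factors and target genes, with the number measured in brackets. Red points had an adjusted p under 0.05, grey points did not, and black bars are list medians. The red points of the PU.1 target list reach from -2.20 to 0.65, whereas the 5 lists of IRF family genes, GATA family genes, Spi1 neighbours, IRF targets and mast cell genes have no red point.

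Genes of the same families as the partners, and their cofactors, were read from the fit in which 1.81% of all genes passed. None of 8 other IRF family genes and cofactors passed, and Irf2bpl (-0.22) and Irf2bp2 (-0.10), which encode IRF2-binding proteins, had the smallest p. None of 13 other GATA family genes and cofactors passed, where Gata6 had -0.23 and Hhex, a homeobox factor of early blood cells, -0.17. Among 9 other C/EBP and related leucine zipper genes, Atf5, a stress response factor, fell by 0.60 (limma adjusted p = 0.00782) and 8 did not pass. Cebpd and Cebpg, 2 further C/EBP genes named after their values were seen, had -0.18 and -0.12. Among 10 other RUNX genes and cofactors, the corepressor Tle4 rose by 1.25 (adjusted p = 0.000531), at 7.97 ± 0.04 with DB2313 and 6.72 ± 0.12 with vehicle (SD, n = 3 each), while Cbfb, which encodes the partner of RUNX1 and was named after its values were seen, had -0.15 and did not pass (adjusted p = 0.399).

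Of 32 other factors that work with or against PU.1, 3 rose and none fell, against 1.02% of all genes that rose and 0.789% that fell. Gfi1, a repressor that favours granulocytes over monocytes and opposes PU.1, had 10.79 ± 0.01 with DB2313 and 10.25 ± 0.02 with vehicle (SD, n = 3 each), a rise of 0.54 (limma adjusted p = 0.00464). Bcl11a, a factor of B cell and plasmacytoid dendritic cell fate, rose by 0.54 (adjusted p = 0.00930), and Myb, a factor of progenitor proliferation, by 0.34 (adjusted p = 0.0336). The call of Bcl11a was lost without DB2313 replicate 3 (adjusted p = 0.0531), and as the mean of its rows it had 0.28 (adjusted p = 0.192). The call of Myb was lost on omitting any single array (adjusted p up to 0.143) and as the mean of its rows (0.0669). Fos, an AP-1 subunit named here after its values were seen, had a difference of 1.27 that did not pass (adjusted p = 0.139). None of 8 genes around the Spi1 locus passed; Acp2 had 0.26 and Rapsn -0.23.

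Target or associated genes of the other factors were read from the same fit, in which 0.789% of all genes fell and 1.02% rose. Of 24 genes of granules and neutrophils that depend on C/EBP factors, 4 fell, 1 rose and 19 did not pass, with a median of 0.0065. The falls were those of S100a8, a calprotectin subunit (-0.63), Mgst1, a microsomal glutathione transferase (-0.59), Il6ra, and Hp, encoding haptoglobin (-0.39, named after its values were seen), and the rise was that of Gfi1. S100a8, Il6ra and Hp did not pass on omitting any single array, nor Mgst1 without DB2313 replicate 3 or without vehicle replicate 1 (adjusted p up to 0.0532). None of 22 target genes of IRF8 and IRF4 passed, and Id2, an inhibitor of helix-loop-helix factors, had 0.76 (adjusted p = 0.169) and Pml 0.11. None of 16 mast cell and basophil genes linked to GATA2 passed, where the protease gene Mcpt8 had 0.28 (adjusted p = 0.0745) and Srgn, a granule proteoglycan, 0.11. Of 16 RUNX1 target genes, Myb rose and 15 did not pass. Of 15 macrophage iron and heme genes associated with SPI-C, Slc11a1, a metal transporter of phagosomes, fell by 0.86 (adjusted p = 0.0112) and 14 did not pass. That call was lost without DB2313 replicate 1, DB2313 replicate 2 or vehicle replicate 1 (highest adjusted p 0.0637), and with 32 added to the linear signal its difference was -0.47.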

How the data were processed

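RNA from 6 samples of 1 cell line was labelled with a whole-transcript kit and hybridised to Affymetrix arrays, per the labels' protocols. The deposited table holds a log2 signal per row and array, the scale being judged from its values. The submitters' processing notes name Affymetrix Expression Console as the software. For its version, the background correction, the summary of probes and the genome build, the entry is: not given in the sources used here. A gene was named where its row had 1 symbol in the platform annotation (23521 of 41345 rows), and its brightest row over the 6 arrays was kept. The contrast of DB2313 minus vehicle was fitted in limma 3.58.1 under R 4.3.3 (lmFit and eBayes, 2-sided), with Benjamini-Hochberg adjustment over all 22180 genes at 0.05. Promoter sequences came from RefSeq. The genes and lists were chosen with earlier results of these data known. From each list up to 4 genes past the threshold were named, or the 2 with the smallest p, and the text says where it departs from this. A signal depends on its probes, so signals of different genes do not rank their transcripts. The number of arrays limits the precision. The test was tested on simulated data with variances drawn from its own fitted model and independent noise, which cannot check the calls made here. Alternatives were dim gene filters, other scaling, an offset, other variance models, the replicate block, other rows and each array left out.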

Additional observations from a re-analysis of the deposited data

How the results depend on the processing

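Across 16 alternatives Spi1 kept its direction, with a difference between -0.41 and -0.28. It did not pass with the replicate number as a block (-0.37, adjusted p = 0.113), with all rows of the table tested (-0.37, adjusted p = 0.124), or in the unmoderated test per gene (-0.37, adjusted p = 0.0872), in each of which the number of factor genes past the threshold was 0. With 1 array left out it was also 0 in all 6 settings, with Spi1 between -0.41 and -0.34. The labels do not say that a replicate number pairs arrays, so the numbers were not taken as pairs. Arrays with the same number had correlations of their deviations from group means of 0.02, 0.08 and 0.0083 over all genes. Arrays of the other group with a different number had correlations between -0.07 and 0.05. These values run over all genes, dim ones included, so they cannot decide whether arrays were paired. With the replicate block Cd53, Cybb, Hp, Il6ra and Myb did not pass either (adjusted p from 0.0591 to 0.113), while Id2 and Fos did (adjusted p = 0.0326 and 0.0339). Over all genes, 401 passed, against 799 without genes below the median signal, 830 with the offset of 32, 920 with a trended and robust prior, 190 with the replicate block, 142 with all rows tested, 70 unmoderated, and between 136 and 187 with 1 array left out. Signs turned only for genes near 0 with 1 array left out, where Cebpe ranged from -0.17 to 0.10, Irf4 from -0.12 to 0.00065 and Spic from -0.038 to 0.030. Fewer arrays, and more rows to adjust over, enter by construction where those were the change; the cause was not tested for the others. Irf4 and Spib were left out by both dim gene filters, and Gata2 and Spic by the one at the median. Leaving Ly96 and Cd33 out of the PU.1 target list was chosen after seeing the data. Background was not measured, which limits what the signals of Spib, Spic and Irf4 can show.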

Other observations

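Markers of other blood lineages were checked beside the fate factors, in the fit where 1.81% of all genes passed. Of 10 measured B cell markers, Igll1, part of the surrogate light chain, rose by 0.52 (limma adjusted p = 0.00686), at 7.25 ± 0.04 with DB2313 and 6.73 ± 0.04 with vehicle (SD, n = 3 each), and 9 did not pass. Pax5 and Ebf1, the factors that define B cell fate and were named after their values were seen, had vehicle signals of 4.16 and 3.61 and differences of -0.08 and 0.02. None of 10 T and NK cell markers, 5 erythroid markers or 9 megakaryocyte markers passed. Ncr1 and Klrb1c, receptors of NK cells, had -0.16 and -0.25 (adjusted p = 0.553 and 0.585). Among the erythroid and megakaryocyte markers Klf1, an erythroid transcription factor, had -0.26 (adjusted p = 0.318), Epb42, a red cell membrane protein, -0.13 (adjusted p = 0.599), Gp6, a platelet collagen receptor, -0.48 (adjusted p = 0.108), and Gp9, a platelet adhesion receptor subunit, -0.27 (adjusted p = 0.114).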
